A study of Saccharomyces cerevisiae with 16 samples.

Results

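The 8 genes described here encode the ammonium permeases of the budding yeast Saccharomyces cerevisiae, MEP1, MEP2 and MEP3, and the enzymes that move nitrogen into and out of glutamate and glutamine, GDH1, GDH2, GDH3, GLN1 and GLT1. They were chosen by gene symbol alone, with the brightest probe set taken where a gene has several. Each gene had 1 probe set, so the 8 genes stand for 8 of the 5716 probe sets measured, of which 5498 carry 1 gene symbol, covering 5449 genes, and 218 carry none. The probe sets carry the locus tags YGR121C (MEP1), YNL142W (MEP2), YPR138C (MEP3), YOR375C (GDH1), YDL215C (GDH2), YAL062W (GDH3), YPR035W (GLN1) and YDL171C (GLT1) in the R64 annotation.

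The data are 16 Affymetrix arrays of total RNA from yeast held at steady state in chemostats, which are continuous cultures fed at a constant rate so that a single nutrient limits growth. The mutant strain SCE088 and the reference strain SCE090 were each grown nitrogen-limited on ethanol, ethanol-limited, nitrogen-limited on glucose and glucose-limited, with 2 arrays in each of the 8 groups. Ammonium sulfate was the nitrogen source of every culture, and it was the scarce nutrient under nitrogen limitation. All cultures were thus fed ammonium. The labels do not name the mutated gene or any other allele of the strains, and nothing in them tells whether a pair of arrays stands for separate cultures. The p-values given here therefore rest on array-to-array spread alone, part or all of which may be technical.

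Ammonium enters yeast cells through the Mep permeases, which belong to the Amt/Mep/Rh family found from bacteria to animals. Mep2 is the high-affinity permease and also acts as an ammonium sensor in filamentous growth, Mep1 has an intermediate and Mep3 a low affinity. Inside the cell the NADP-dependent glutamate dehydrogenases Gdh1 and Gdh3 join ammonium to 2-oxoglutarate to make glutamate, and glutamine synthetase, Gln1, adds a further ammonium to make glutamine. Glutamate synthase, Glt1, returns the amide nitrogen of glutamine to 2-oxoglutarate, and the NAD-dependent dehydrogenase Gdh2 runs the other way and frees ammonium from glutamate. Many genes of nitrogen uptake are held down while a rich nitrogen source is plentiful, a control known as nitrogen catabolite repression that acts through the GATA factors Gln3, Gat1, Dal80 and Gzf3.

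Array medians lay between 11.91 and 12.01 log2 intensity, and the 2 arrays of a group correlated at 0.984 to 0.997 over all probe sets. The values of 7 marker genes, PCK1, FBP1, ICL1, HXT1, GAP1, DAL5 and ACC1, were set beside the labels, and some are given here. Between nitrogen and ethanol limitation, 1 of the 7 was higher and 1 lower in the reference strain (of all probe sets 4.62% and 3.59%). In the mutant strain 2 of the 7 were higher and none lower there (6.53% and 7.79%). PCK1, a gluconeogenic enzyme gene, was 3.22 to 4.09 log2 units higher on ethanol than on glucose in the 4 such comparisons, and HXT1, a low-affinity glucose carrier, was 5.67 log2 units higher under nitrogen limitation than under glucose limitation in the mutant strain and 4.78 higher in the reference strain. DAL5, the allantoate permease gene and a classical target of nitrogen catabolite repression, was higher under nitrogen limitation by 0.85 log2 units on ethanol and 3.05 on glucose in the mutant strain, and by 1.31 on ethanol and 3.36 on glucose in the reference strain. The group means of GAP1, the other marker of nitrogen limitation, spanned 0.73 log2 units. With 1 of the 7 higher on ethanol in the reference strain, DAL5 and GAP1 did not both pass as higher there. ACC1, the acetyl-CoA carboxylase gene, differed between strains by -3.47 to -3.24 log2 units (mutant minus reference) over the 4 conditions. Since the labels do not name the mutated gene, this difference could not check the strain labels. In such bulk samples, a change in some of the cells and a change in every cell cannot be told apart.

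The 8 genes fell into patterns that cross the line between permeases and enzymes. MEP2 and GLT1, and by less GLN1, were higher under nitrogen limitation on glucose in both strains and lowest in the glucose-limited reference strain. MEP1, GDH2 and GDH3 were instead lowest under nitrogen limitation on glucose, and under nitrogen limitation they were higher on ethanol in both strains. GDH1 was nearly level across the 8 groups. The range of the 8 group means was 1.97 log2 units for GDH3, 1.19 for MEP1, 1.11 for GLT1, 1.03 for MEP2, 1.00 for GDH2, 0.85 for MEP3, 0.53 for GLN1 and 0.28 for GDH1, and the standard error of a difference between groups was 0.039 to 0.066 for these genes.

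**Figure D1:**
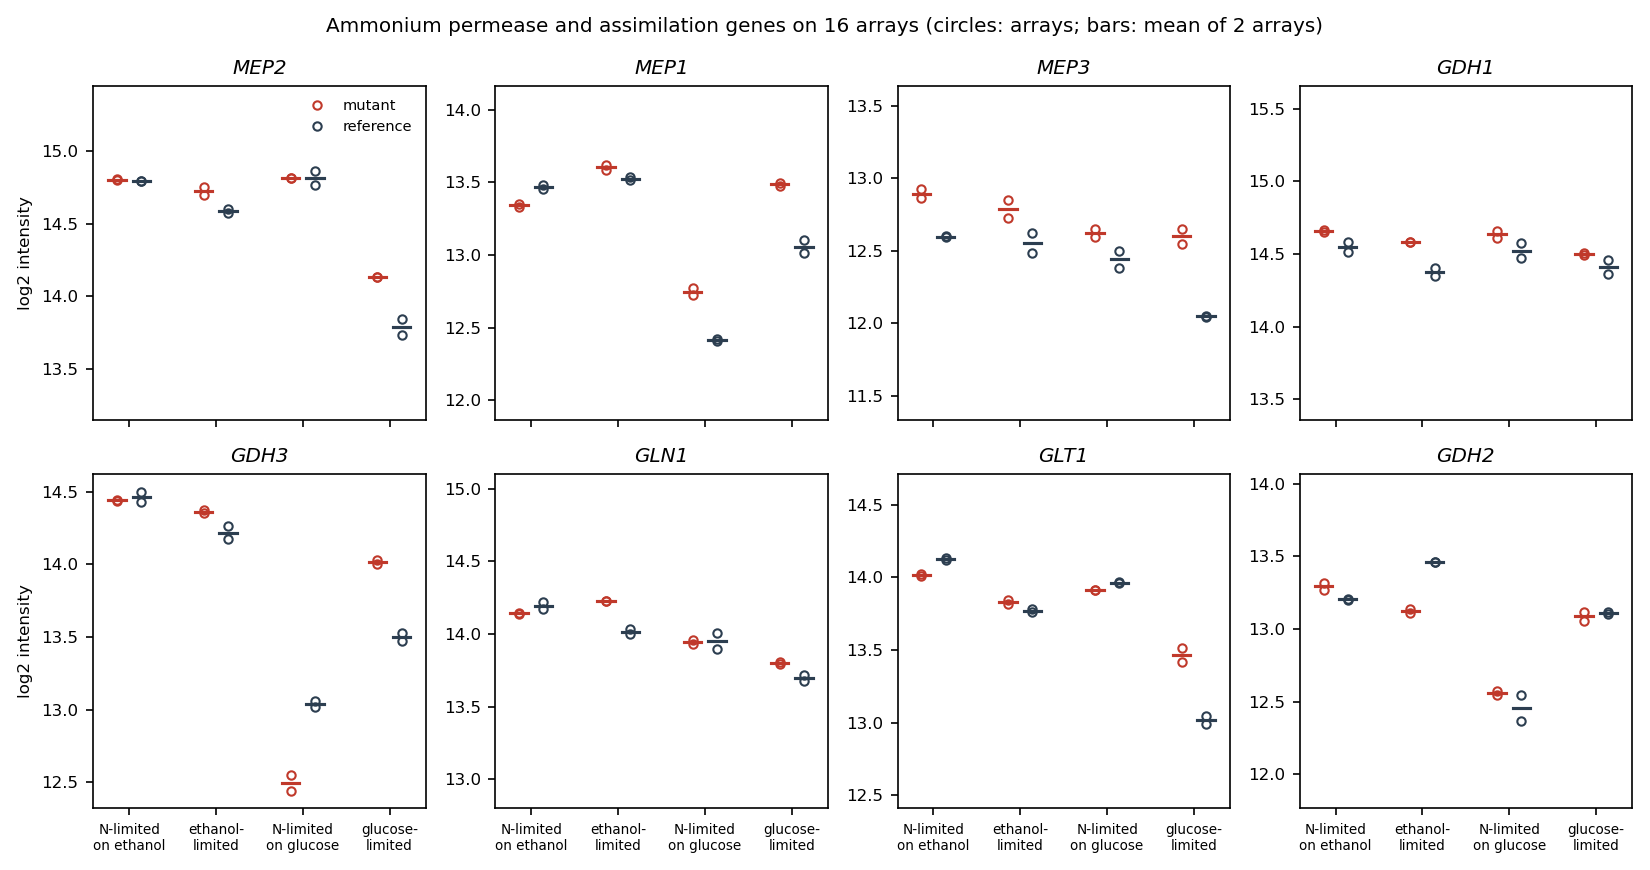
Log2 intensity of each of the 8 genes on each array, by growth condition, for the mutant strain (red) and the reference strain (dark blue); circles are arrays, bars are means of 2 arrays, and every panel spans the same number of log2 units. MEP2 and GLT1 dip in the glucose-limited cultures, MEP1, GDH2 and GDH3 dip in the cultures that are nitrogen-limited on glucose, and GDH1 has a range of group means of 0.28 log2 units.

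Nitrogen limitation moved most of the 8 genes on glucose and fewer on ethanol. In the mutant strain on glucose, 4 genes were higher and 3 lower under nitrogen than under glucose limitation, with 48.8% of all probe sets past the threshold (limma, Benjamini-Hochberg adjusted p under 0.05), 25.2% higher and 23.6% lower. In the reference strain on glucose it was likewise 4 higher and 3 lower, against 43.6% of all probe sets, 21.4% higher and 22.2% lower. On ethanol, 1 gene was higher and 1 lower in the mutant strain, where 14.3% of all probe sets passed (6.53% higher and 7.79% lower), and 4 were higher and 1 lower in the reference strain, where 8.21% passed (4.62% higher and 3.59% lower). Of all calls on ethanol in the mutant strain 45.6% were higher, 64.9% under quantile normalization and 67.2% under median centring. The median size of the change of the 8 genes in the reference strain was 0.55 log2 units on glucose, against 0.19 over all probe sets, and 0.19 on ethanol, against 0.08 over all. The comparison on ethanol rests on a narrow margin: fitted on the 4 arrays of its own groups alone, none of the 8 genes passed in either strain, and leaving out 1 array of the reference strain left 1 or 2 of its 5 calls.

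**Figure D2:**
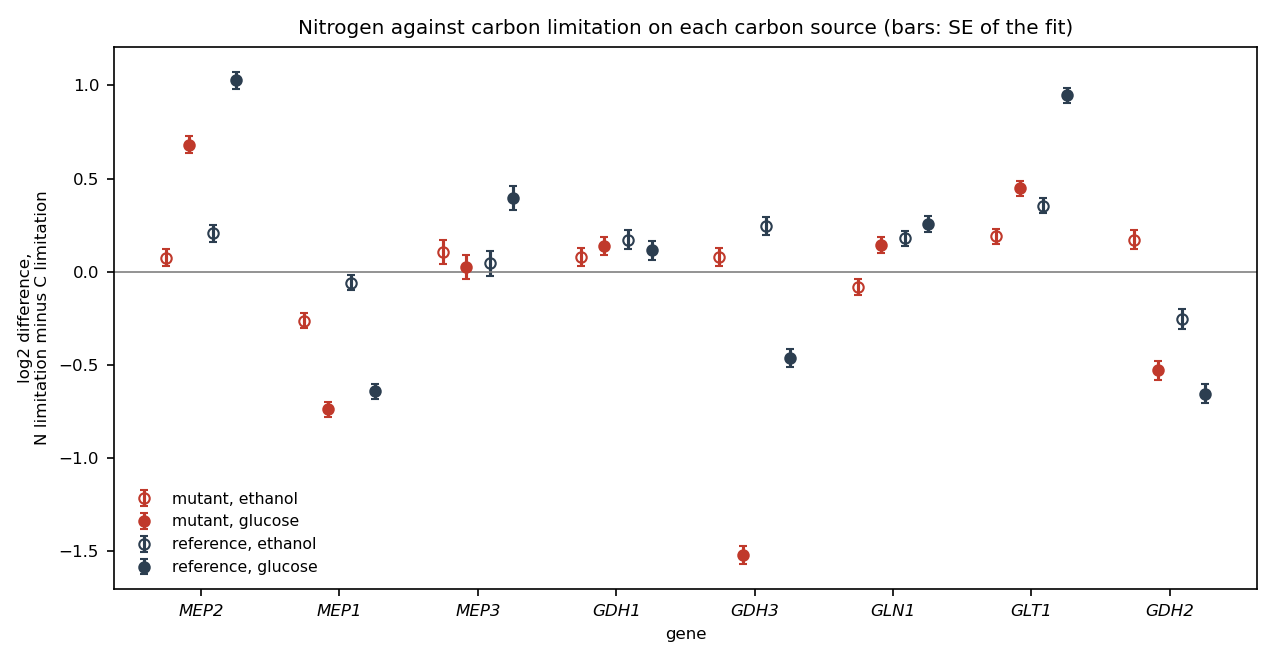
Log2 difference of nitrogen minus carbon limitation for each gene, on ethanol (open) and glucose (filled), in the mutant strain (red) and the reference strain (dark blue); bars are the standard error of the fit. The filled points spread from -1.52 for GDH3 in the mutant strain to 1.03 for MEP2 in the reference strain, and the open points lie between -0.26 and 0.35.

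MEP2 transcript was higher under nitrogen limitation on glucose, by 1.60-fold in the mutant strain and 2.04-fold in the reference strain, and its level under nitrogen limitation was almost the same in all 4 such groups. Under nitrogen limitation on glucose it measured 14.81 and 14.82 log2 intensity in the mutant strain, and 14.86 and 14.77 in the reference strain. Under glucose limitation it measured 14.13 and 14.13 in the mutant strain, and 13.73 and 13.84 in the reference strain. In both strains all nitrogen-limited arrays lay above all glucose-limited arrays, with log2 differences of 0.68 ± 0.046 in the mutant strain (SE of the fit, n = 2 arrays each, limma adjusted p = 7.57e-07) and 1.03 ± 0.046 in the reference strain (adjusted p = 4.24e-08). On ethanol MEP2 measured 14.80 and 14.81 under nitrogen limitation against 14.70 and 14.76 under ethanol limitation in the mutant strain, a difference of 0.08 (95% interval -0.03 to 0.18, adjusted p = 0.278). On ethanol the reference strain had 14.79 and 14.80 under nitrogen limitation against 14.61 and 14.57 under ethanol limitation, a difference of 0.21 (adjusted p = 0.0219) that did not pass whichever of those 4 arrays was left out (adjusted p up to 0.131). The effect of nitrogen limitation was smaller on ethanol than on glucose, by 0.61 log2 units in the mutant strain (interaction, adjusted p = 4.95e-05) and 0.82 in the reference strain (adjusted p = 8.73e-06).

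The order of the MEP2 levels put the 4 nitrogen-limited groups on top, between 14.79 and 14.82, and no neighbours among them differed by more than 2 standard errors. The ethanol-limited mutant strain followed at 14.73, the ethanol-limited reference strain at 14.59, the glucose-limited mutant strain at 14.13 and the glucose-limited reference strain at 13.79, and the steps between these 4 groups each exceeded 2 standard errors, while the step down to the first of them did not. MEP2 was thus higher in ethanol-limited than in glucose-limited cultures, by 0.60 log2 units in the mutant strain (adjusted p = 7.44e-06) and 0.80 in the reference strain (adjusted p = 9.23e-07). Under nitrogen limitation the ethanol minus glucose difference was -0.01 in the mutant strain (95% interval -0.11 to 0.09) and -0.02 in the reference strain (95% interval -0.12 to 0.08). The MEP2 probe set was close to the top of the measured scale. In each of the 4 nitrogen-limited groups only 2 of 5716 probe sets had a higher group mean, and the highest value on any array was 15.13, so whether the scale compressed these differences was not tested.

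MEP1 ran the other way from MEP2 on glucose: it was 1.67-fold lower under nitrogen than under glucose limitation in the mutant strain and 1.56-fold lower in the reference strain. It measured 12.72 and 12.77 log2 intensity under nitrogen limitation against 13.50 and 13.48 under glucose limitation in the mutant strain. The reference strain had 12.41 and 12.42 under nitrogen limitation against 13.01 and 13.10 under glucose limitation. The groups did not overlap in either strain, and the differences were -0.74 ± 0.039 in the mutant strain (limma adjusted p = 1.01e-07) and -0.64 ± 0.039 in the reference strain (adjusted p = 4.27e-07). On ethanol it measured 13.33 and 13.35 under nitrogen limitation against 13.62 and 13.59 under ethanol limitation in the mutant strain, a fall of 0.26 (adjusted p = 0.00204). The reference strain on ethanol measured 13.48 and 13.46 under nitrogen limitation against 13.53 and 13.52 under ethanol limitation, a difference of -0.06 (95% interval -0.15 to 0.03, adjusted p = 0.505). MEP1 was higher on ethanol than on glucose under nitrogen limitation, by 1.51-fold in the mutant strain (adjusted p = 9.02e-07) and 2.07-fold in the reference strain (adjusted p = 1.12e-08). Under carbon limitation the ethanol minus glucose difference was 0.12 in the mutant strain (adjusted p = 0.0433, and up to 0.168 with 1 array left out) and 0.47 in the reference strain (adjusted p = 1.5e-05).

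MEP3 was higher in the mutant strain glucose-limited, ethanol-limited and nitrogen-limited on ethanol, and the call held with any 1 array left out only for the first of these (adjusted p up to 0.194 ethanol-limited and 0.11 nitrogen-limited on ethanol). Nitrogen-limited on glucose the difference was 0.18 (adjusted p = 0.0781), which passed under quantile normalization (0.0362), median centring (0.0465) and replicate blocks (0.0135 to 0.0269). All 8 arrays of the mutant strain lay between 12.54 and 12.93 log2 intensity, and the 8 arrays of the reference strain between 12.04 and 12.62. The lowest values were those of the glucose-limited reference strain, 12.05 and 12.04, and no other array was below 12.38. Nitrogen limitation on glucose gave a difference of 0.02 in the mutant strain (95% interval -0.12 to 0.17, limma adjusted p = 0.788) and 0.39 ± 0.066 in the reference strain (adjusted p = 0.000691). On ethanol the difference was 0.10 in the mutant strain (adjusted p = 0.294) and 0.04 in the reference strain (adjusted p = 0.833). The difference between strains in the response on glucose was -0.37 (mutant minus reference, adjusted p = 0.0188), and it did not pass without the mutant glucose-limited array 2, the mutant nitrogen-limited array 1, or array 2 of either reference group (adjusted p up to 0.0725).

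GDH1 encodes the NADP-dependent glutamate dehydrogenase that dominates during growth on glucose, and its transcript changed least of the 8. The 16 arrays lay between 14.34 and 14.67 log2 intensity, and no neighbours in the order of the 8 group means differed by more than 2 standard errors. The ends of that order, 14.66 (mutant strain nitrogen-limited on ethanol) and 14.37 (ethanol-limited reference strain), lay further apart, with a standard error of 0.049. Its range of group means exceeded those of 20.4% of probe sets. Nitrogen minus carbon limitation gave 0.08 on ethanol and 0.14 on glucose in the mutant strain, and, for the reference strain, 0.17 on ethanol and 0.11 on glucose. Of these the value of 0.14 alone passed (limma adjusted p = 0.0425), and it did not pass whichever of its 4 arrays was left out (adjusted p up to 0.194). With a replicate block within each strain, by the numbers in the descriptions and chosen after seeing the data, the values of the reference strain passed as well (adjusted p = 0.00598 on ethanol and 0.0105 on glucose). Ethanol minus glucose lay between -0.03 and 0.08 in the 4 comparisons (adjusted p 0.239 to 0.76). Mutant minus reference lay between 0.09 and 0.21 in the 4 conditions. Of these the ethanol-limited value of 0.21 alone passed (limma adjusted p = 0.0143, and 0.111 in the fit on its own groups). Like MEP2, GDH1 is near the top of the scale: 10 to 66 probe sets had a higher group mean, depending on the group.

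GDH3, the paralog of GDH1 that is known for its use on non-fermentable carbon sources, changed most of the 8. It was 3.85-fold higher on ethanol than on glucose in the nitrogen-limited mutant strain and 2.69-fold higher in the nitrogen-limited reference strain. On ethanol under nitrogen limitation it measured 14.44 and 14.44 log2 intensity in the mutant strain, and 14.43 and 14.50 in the reference strain. On glucose under nitrogen limitation it measured 12.44 and 12.55 in the mutant strain, and 13.02 and 13.06 in the reference strain. The ethanol and glucose arrays did not overlap, and the differences were 1.95 ± 0.049 in the mutant strain (limma adjusted p = 3.53e-10) and 1.43 ± 0.049 in the reference strain (adjusted p = 5.79e-09). Under carbon limitation GDH3 measured 14.37 and 14.35 on ethanol against 14.00 and 14.03 on glucose in the mutant strain, a difference of 0.34 (adjusted p = 0.000522). The reference strain had 14.17 and 14.26 on ethanol against 13.53 and 13.47 on glucose, a difference of 0.72 (adjusted p = 3.33e-06).

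GDH3 was lower under nitrogen than under glucose limitation in both strains, and by more in the mutant strain. The fall was 1.52 ± 0.049 log2 units in the mutant strain, 2.87-fold (limma adjusted p = 1.93e-09), against 0.46 ± 0.049 in the reference strain, 1.38-fold (adjusted p = 2.94e-05). The difference between those responses was -1.06 (mutant minus reference, 95% interval -1.21 to -0.91, adjusted p = 3.18e-06). On ethanol nitrogen limitation gave 0.08 in the mutant strain (adjusted p = 0.288) and 0.25 in the reference strain (adjusted p = 0.0113, and up to 0.0996 without ethanol-limited array 1 or nitrogen-limited array 2). The glucose-limited and nitrogen-limited strains stood in opposite order on glucose: GDH3 was 0.52 higher in the mutant strain under glucose limitation (adjusted p = 0.000112) and 0.54 lower in it under nitrogen limitation (-0.54, adjusted p = 3.33e-05). GDH1 and GDH3 are close relatives, and the probe sequences were not analysed here, so cross-hybridization between them was not tested. GDH3 spanned 1.97 log2 units while GDH1 spanned 0.28.

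GLT1, the glutamate synthase gene, passed as higher under nitrogen limitation in both strains and on both carbon sources, though its calls on ethanol did not pass in the fit on their own groups (adjusted p = 0.098 in the mutant strain and 0.106 in the reference strain). On glucose it measured 13.91 and 13.91 log2 intensity under nitrogen limitation against 13.52 and 13.42 under glucose limitation in the mutant strain. The reference strain had 13.96 and 13.97 under nitrogen limitation against 13.05 and 12.99 under glucose limitation. Every nitrogen-limited array was above every glucose-limited array, with differences of 0.45 ± 0.040 in the mutant strain (limma adjusted p = 7.11e-06) and 0.95 ± 0.040 in the reference strain (adjusted p = 2.73e-08). On ethanol it measured 14.03 and 14.01 under nitrogen limitation against 13.84 and 13.82 under ethanol limitation in the mutant strain, a difference of 0.19 (adjusted p = 0.0131, and up to 0.0916 with 1 array left out). On ethanol the reference strain had 14.12 and 14.13 under nitrogen limitation against 13.78 and 13.76 under ethanol limitation, a difference of 0.35 (adjusted p = 0.000384). GLT1 was also higher in ethanol-limited than in glucose-limited cultures, by 1.28-fold in the mutant strain (adjusted p = 0.000102) and 1.69-fold in the reference strain (adjusted p = 5.39e-07).

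GLN1, the glutamine synthetase gene, was higher on ethanol than on glucose in all 4 such comparisons. The difference was 0.20 under nitrogen limitation and 0.42 under carbon limitation in the mutant strain, and 0.24 under nitrogen limitation and 0.32 under carbon limitation in the reference strain (limma adjusted p 4.74e-05 to 0.00387). The value of 0.24 did not pass in the fit on its own groups (adjusted p = 0.116). The lowest level was again that of the glucose-limited reference strain, 13.67 and 13.72 log2 intensity, and the highest that of the ethanol-limited mutant strain, 14.22 and 14.23. The change with nitrogen limitation was smaller than for GLT1: on glucose it was 0.14 ± 0.042 in the mutant strain (adjusted p = 0.0168, and up to 0.091 with 1 array left out) and 0.26 ± 0.042 in the reference strain (adjusted p = 0.000668, and 0.0749 in the fit on its own groups). On ethanol it was -0.08 in the mutant strain (95% interval -0.18 to 0.01, adjusted p = 0.2) and 0.18 in the reference strain (adjusted p = 0.0292, and up to 0.17 with 1 array left out).

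GDH2, whose product releases ammonium from glutamate, was lowest where nitrogen was scarce and glucose plentiful. Under nitrogen limitation on glucose it measured 12.57 and 12.55 log2 intensity in the mutant strain, and 12.37 and 12.54 in the reference strain. Under glucose limitation it measured 13.12 and 13.06 in the mutant strain, and 13.11 and 13.12 in the reference strain. The groups did not overlap, and GDH2 fell by 0.53 ± 0.053 log2 units in the mutant strain (limma adjusted p = 1.53e-05) and by 0.65 ± 0.053 in the reference strain (adjusted p = 3.83e-06). On ethanol it measured 13.27 and 13.32 under nitrogen limitation against 13.14 and 13.11 under ethanol limitation in the mutant strain, a difference of 0.17 (adjusted p = 0.0542). On ethanol the reference strain had 13.20 and 13.21 under nitrogen limitation against 13.46 and 13.46 under ethanol limitation, a fall of 0.26 (adjusted p = 0.0146, and up to 0.0844 with 1 array left out). The values of the 2 strains have opposite signs, and the difference between them was 0.43 (mutant minus reference, adjusted p = 0.00944). On ethanol GDH2 was higher than on glucose under nitrogen limitation, by 0.74 in the mutant strain (adjusted p = 1.72e-06) and 0.75 in the reference strain (adjusted p = 1.96e-06). Under carbon limitation the ethanol minus glucose difference of GDH2 was 0.03 in the mutant strain (95% interval -0.08 to 0.15, adjusted p = 0.653). It was 0.35 in the carbon-limited reference strain (adjusted p = 0.000893).

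Genes of the set that passed between carbon sources were all higher on ethanol than on glucose. Under nitrogen limitation 5 of the 8 were higher on ethanol in the mutant strain, where 19.5% of all probe sets were higher and 23.0% were lower, 42.5% in either direction. Likewise 5 were higher in the reference strain, where 17.7% of all were higher and 15.9% were lower, 33.6% in either direction. Under carbon limitation 6 were higher in the mutant strain, with 16.2% of all higher, 15.7% lower and 31.9% passing in either direction, and 7 were higher in the reference strain, with 11.3% of all higher, 13.0% lower and 24.3% passing in either direction. Of all calls in the carbon-limited mutant strain 50.7% were higher on ethanol, and 38.5% under median centring. In the carbon-limited reference strain all 7 calls, on every gene but GDH1, held with any 1 array left out and in the fit on the 4 arrays of its own groups. The calls of MEP1 and MEP3 in the carbon-limited mutant strain were the narrowest, with adjusted p = 0.0433 for MEP1 and 0.0489 for MEP3. The nitrogen against carbon comparison and the ethanol against glucose comparison share their glucose-limited arrays, which held the lowest levels of MEP2, MEP3, GLN1 and GLT1 in the reference strain.

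**Figure D3:**
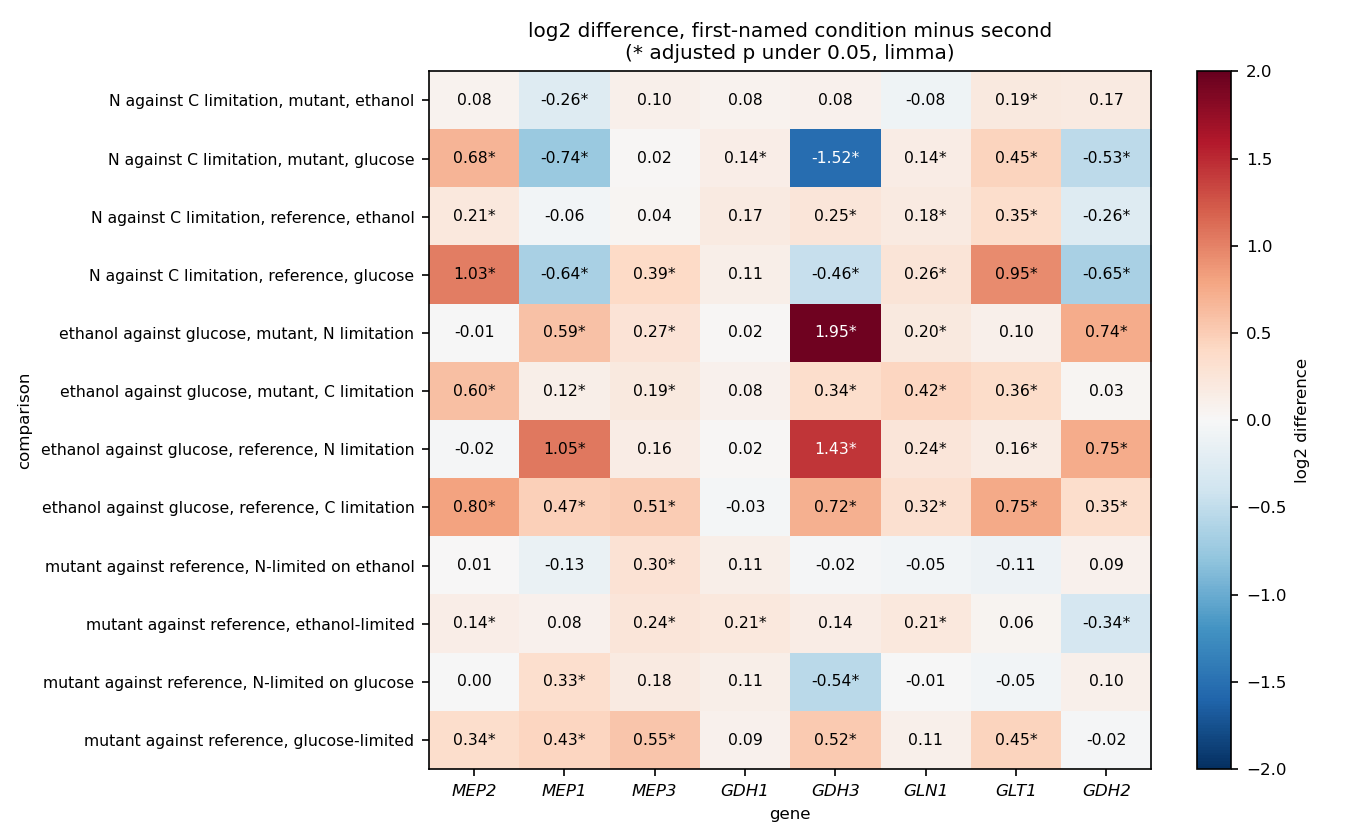
Log2 differences of the 8 genes in the 12 comparisons between 2 groups, first-named condition minus second, with red for higher and blue for lower in the first-named condition and a star where the limma adjusted p was under 0.05. The ethanol against glucose rows hold stars on positive values only, and the largest value is 1.95 for GDH3 in the nitrogen-limited mutant strain.

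In glucose-limited cultures 5 of the 8 genes were higher in the mutant strain and none lower, against 9.41% of all probe sets higher, 8.80% lower and 18.2% passing in either direction. MEP3 was 0.55 log2 units higher (1.47-fold, limma adjusted p = 0.000434), GDH3 0.52 (1.43-fold, adjusted p = 0.000112), GLT1 0.45 (1.37-fold, adjusted p = 8.2e-05), MEP1 0.43 (1.35-fold, adjusted p = 9.01e-05) and MEP2 0.34 (1.27-fold, adjusted p = 0.000886). In the fit on the 4 arrays of these groups MEP2 did not pass (adjusted p = 0.0643) and the other 4 did. In each of these 5 genes both arrays of the mutant strain lay above both of the reference strain. The same held for GDH1 (adjusted p = 0.234) and GLN1 (adjusted p = 0.113), which did not pass, so this separation did not set the called genes apart. The share of all probe sets separated in this way was not computed. Nitrogen-limited on glucose, MEP1 was 0.33 higher in the mutant strain (adjusted p = 0.000228) and GDH3 lower, while 21.1% of all probe sets passed (9.99% higher and 11.1% lower). Of all calls there 47.3% were higher, and 58.3% under quantile normalization. Ethanol-limited, MEP2, MEP3, GDH1 and GLN1 were higher and GDH2 lower in the mutant strain, with 24.8% of all probe sets passing (12.2% higher and 12.6% lower). The fall of GDH2 was 0.34 (adjusted p = 0.0018), and none of these 5 passed in the fit on the 4 arrays of the 2 groups alone. Nitrogen-limited on ethanol, only MEP3 passed, 0.30 higher in the mutant strain (adjusted p = 0.0135, and up to 0.11 with 1 array left out), with 15.8% of all probe sets passing (5.65% higher and 10.1% lower). Of all calls there 35.8% were higher, 57.3% under quantile normalization and 56.2% under median centring.

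The response to nitrogen limitation differed between carbon sources for most of the genes. In the mutant strain the ethanol minus glucose interaction was positive for 3 genes and negative for 3, with 33.8% of all probe sets past the threshold (16.0% positive and 17.8% negative). Of all calls of that interaction 47.3% were positive, and 59.0% under median centring. In the reference strain it was likewise positive for 3 and negative for 3, with 24.5% past it (14.0% positive and 10.5% negative). MEP1, GDH2 and GDH3 were on the positive side in both strains, and MEP2 and GLT1 on the negative side in both. The interaction of strain with limitation on glucose was negative for MEP2, MEP3, GDH3 and GLT1, with 20.7% of all probe sets past the threshold (10.2% positive and 10.5% negative). On ethanol it was positive for GDH2 and negative for GLN1, with 6.23% of all past it (2.34% positive and 3.88% negative). Of all calls of that last interaction 37.6% were positive, 63.0% under quantile normalization and 59.4% under median centring. The rise of GLT1 on glucose was 0.50 log2 units smaller in the mutant strain than in the reference strain (adjusted p = 0.000193), and that of MEP2 was 0.35 smaller (adjusted p = 0.00425). In both genes the nitrogen-limited levels on glucose were close between strains, with a mutant minus reference difference of 0.00 for MEP2 (95% interval -0.10 to 0.10) and -0.05 for GLT1 (95% interval -0.14 to 0.04).

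Of 4 regulators of permease activity, NPR1, NPR2 and NPR3 were higher under nitrogen than under glucose limitation in both strains and none was lower, while 25.2% of all probe sets were higher in the mutant strain and 21.4% in the reference strain. NPR1, the kinase that keeps the Mep permeases active when nitrogen is poor, was 0.39 higher in the mutant strain and 0.55 higher in the reference strain. NPR3, which with NPR2 restrains the TORC1 growth signal, was 0.88 higher in the mutant strain and 0.89 higher in the reference strain, and NPR2 was 0.76 higher in the mutant strain and 0.80 higher in the reference strain. The median change of the list was 0.58 in the mutant strain and 0.67 in the reference strain, against 0.00 over all probe sets in both. PAR32, an inhibitor of Mep1 and Mep3, did not pass (-0.08 in the mutant strain, -0.11 in the reference strain). Under nitrogen limitation the same 3 genes were lower on ethanol than on glucose in both strains, by 0.71 for NPR2 in the mutant strain and by 0.51 in the reference strain. Of all probe sets 23.0% were lower on ethanol there in the mutant strain and 15.9% in the reference strain. MEP2 did not pass in that comparison.

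Of the GATA factors and URE2, a list of 5, DAL80 and GAT1 were higher under nitrogen limitation on glucose in both strains and none was lower. DAL80, a repressor that is itself a target of nitrogen catabolite repression, was 2.43 higher in the mutant strain and 2.57 higher in the reference strain, and GAT1, an activator, 0.45 higher in the mutant strain and 0.59 higher in the reference strain. GLN3, an activator, and URE2, whose product holds Gln3 in the cytoplasm, did not pass. Of 19 other measured targets of nitrogen catabolite repression, 15 were higher and 1 lower in the mutant strain, and 16 were higher and none lower in the reference strain, with a median change of 1.13 in the mutant strain and 0.93 in the reference strain. Of all probe sets 25.2% were higher in the mutant strain and 21.4% in the reference strain. The largest were OPT2, of the oligopeptide transporter family (6.33 in the mutant strain, 6.13 in the reference strain), DAL5 (3.36 in the reference strain) and the allantoinase gene DAL1 (2.38 in the reference strain). On ethanol 10 of the 19 were higher and 2 lower in the mutant strain, where 6.53% of all probe sets were higher and 7.79% lower. In the reference strain 12 were higher and none lower, where 4.62% of all were higher and 3.59% lower.

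Of 9 measured genes that supply 2-oxoglutarate, the carbon skeleton of glutamate, 6 were lower and 2 higher under nitrogen than under glucose limitation in the mutant strain, where 23.6% of all probe sets were lower and 25.2% higher. In the reference strain 6 were lower and none higher, where 22.2% of all were lower and 21.4% higher. The largest falls in the reference strain were in CIT3, a mitochondrial citrate and methylcitrate synthase (-3.14), and in the NADP-dependent isocitrate dehydrogenase genes IDP3, peroxisomal (-1.90), and IDP2, cytosolic (-1.14). Under nitrogen limitation, ethanol minus glucose was positive and past the threshold for 8 of the 9 in the mutant strain and for all 9 in the reference strain, against 19.5% of all probe sets in the mutant strain and 17.7% in the reference strain. The medians were 0.59 in the mutant strain and 0.51 in the reference strain against -0.02 over all probe sets in the mutant strain and 0.02 in the reference strain. CIT3 led there too (4.13 in the mutant strain, 3.08 in the reference strain). On ethanol none of the 9 passed between nitrogen and ethanol limitation in the mutant strain, where 14.3% of all probe sets passed. In the reference strain 2 were higher and 2 lower, where 4.62% of all were higher and 3.59% lower. Between ethanol and glucose limitation 5 were higher and 1 lower on ethanol in the mutant strain, where 16.2% of all were higher and 15.7% lower. In the reference strain 4 were higher and none lower, where 11.3% of all were higher and 13.0% lower.

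The ATO family, membrane proteins linked to acetate uptake and ammonium export, fell furthest of these lists under nitrogen limitation on glucose. ADY2, the acetate permease gene, was 5.57 log2 units lower in the mutant strain (-5.57) and 5.44 lower in the reference strain (-5.44). ATO3 changed by -3.36 in the mutant strain and -3.11 in the reference strain, and ATO2 by -3.56 in the mutant strain and -2.83 in the reference strain. All 3 passed as lower in both strains, against 23.6% of all probe sets lower in the mutant strain and 22.2% in the reference strain. Under nitrogen limitation all 3 were higher on ethanol than on glucose, ADY2 by 5.73 in the mutant strain and 5.72 in the reference strain. Of all probe sets 19.5% were higher on ethanol there in the mutant strain and 17.7% in the reference strain. On ethanol ADY2 did not pass between the limitations, with 0.04 in the mutant strain and -0.31 in the reference strain. ATO3 was lower there in both strains (-0.92 in the mutant strain, -1.09 in the reference strain), and ATO2 passed in the reference strain (-0.46) and not in the mutant strain (-0.18). Of all probe sets 7.79% were lower in that comparison in the mutant strain and 3.59% in the reference strain.

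**Figure D4:**
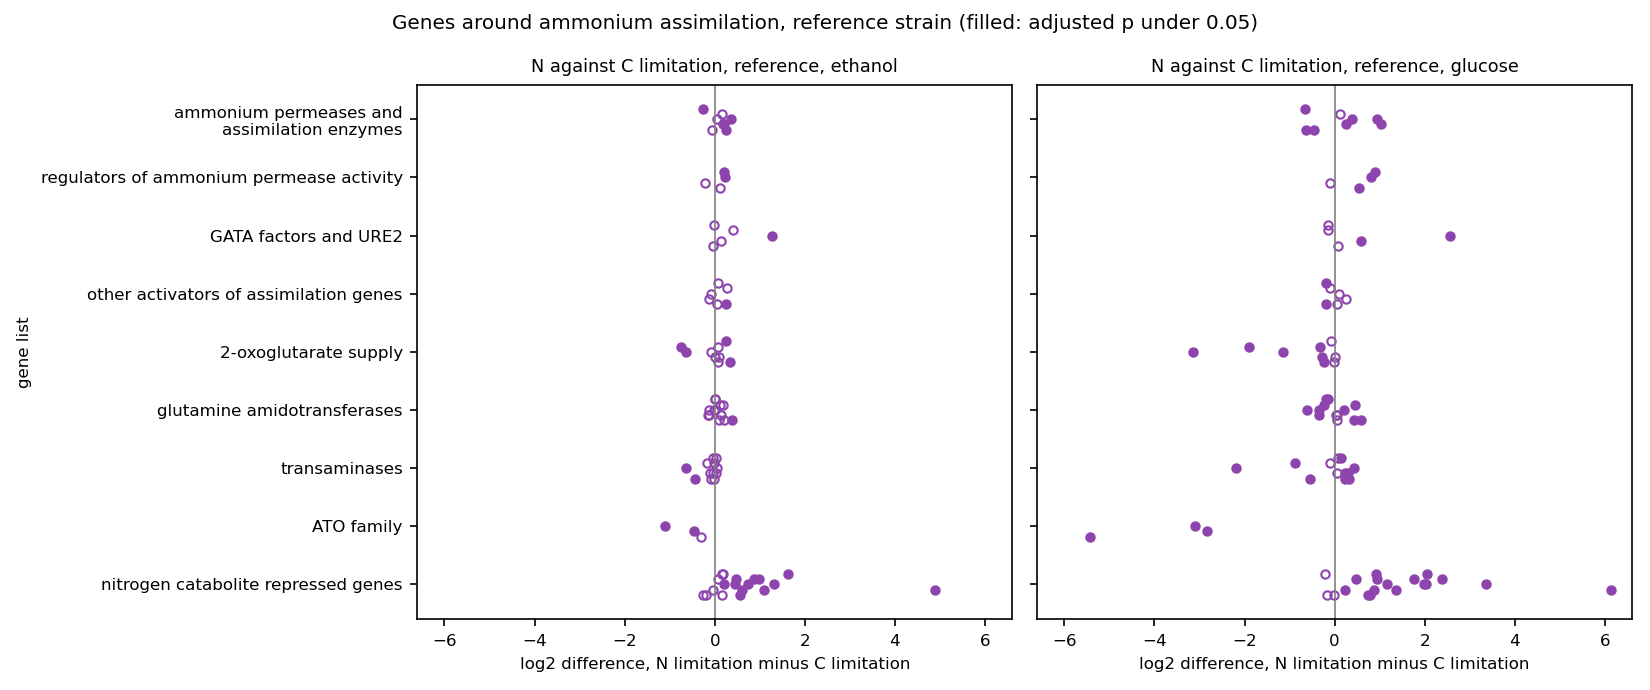
Log2 difference of nitrogen minus carbon limitation in the reference strain, on ethanol (left) and on glucose (right), for the 8 genes and for 8 lists of genes around ammonium assimilation; each point is a gene, filled where the limma adjusted p was under 0.05. On glucose the ATO family and the 2-oxoglutarate supply genes lie on the negative side, down to -5.44, and the nitrogen catabolite repressed genes lie between -0.22 and 6.13, with 16 of 19 past the threshold on the positive side.

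For the remaining lists on glucose, the shares of all probe sets past the threshold were 48.8% in the mutant strain and 43.6% in the reference strain. Of 6 further activators of assimilation genes, none was higher and 1 lower under nitrogen limitation on glucose in the mutant strain, HAP5 (-0.28), and none was higher and 2 lower in the reference strain, HAP4 (-0.19) and HAP5 (-0.19), which belong to a complex that activates respiratory genes. GCN4 transcript differed by 0.00 in the mutant strain and 0.04 in the reference strain, and did not pass. Of 13 genes for enzymes that take nitrogen from the amide of glutamine or make asparagine, 3 were higher and 3 lower in the mutant strain, and 4 were higher and 6 lower in the reference strain. ASN1, an asparagine synthetase, was 0.58 higher in the reference strain, and GFA1, which makes glucosamine phosphate for the cell wall, changed by -0.60. Of 12 transaminase genes, which hand the amino group of glutamate on, 5 were higher and 3 lower in the mutant strain, and 6 were higher and 3 lower in the reference strain. The largest change was in ARO9, an aromatic aminotransferase (-2.40 in the mutant strain, -2.19 in the reference strain).

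Across the 8 group means, MEP2 and GLT1 followed each other most closely of the 28 pairs among the 8 genes, with Pearson r = 0.972. MEP1 went with GDH2 (r = 0.888) and GDH3 (r = 0.875), and GDH2 with GDH3 (r = 0.868). MEP1 and MEP2 had r = -0.13. These values describe 8 groups of 2 arrays each that come from a single normalization. Among the 5441 other genes the profile closest to MEP2 was that of GRX4, a monothiol glutaredoxin (r = 0.985), followed by YMC2 (r = 0.969) and GRX6 (r = 0.968), and GRX4 (r = 0.961) and GRX6 (r = 0.953) were also closest to GLT1, ahead of GAP1, the general amino acid permease gene (r = 0.939). GDH3 was closest to PCS60 (r = 0.981), to ACO1, the mitochondrial aconitase gene (r = 0.977), and to ACH1, an acetyl-CoA hydrolase gene (r = 0.975). MEP1 was closest to REV7 (r = 0.987), NSE1 (r = 0.984) and CAB2 (r = 0.967), and GDH2 to DDI3, ARG2 and ALG13 (r = 0.976 to 0.977). GLN1 was closest to ISA1 (r = 0.979), PEX17 and AFT2, MEP3 to DLD3 (r = 0.938), GPB1 and ASI3, and GDH1 to SWE1 (r = 0.913), LYP1 and MIF2. These genes were picked for the highest r among 5441 over only 8 points, so high values partly reflect that choice. The size of change does not enter r. Group means spanned 0.34 log2 units for REV7 against 1.19 for MEP1, and 1.53 for DDI3 against 1.00 for GDH2.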

How the data were processed

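RNA of 16 chemostat samples was hybridised to Affymetrix yeast arrays. Per probe set the authors deposited a normalized intensity, on a linear and not a log2 scale. The submitters' processing notes name GCRMA, with no version, and how its log values became linear ones is not given here. The publication at hand describes these arrays as a time course, which the labels do not, so its methods were not used. No value column was left out. The deposited intensities were converted to log2 without an offset, and limma 3.58.1 (R 4.3.3) was run on the 16 arrays together, with 1 mean for each of the 8 groups (8 residual and 2.01 prior degrees of freedom, eBayes), after a test of the scripts on simulated data. From it 12 comparisons between 2 groups and 4 interactions were taken, each with Benjamini-Hochberg adjustment over 5716 probe sets and a threshold of 0.05. Intervals are 95% intervals of the fit. Gene symbols came from the platform annotation, with 12 symbols updated by Entrez gene ID from RefSeq's R64 table. The genes named are the 8 genes, the 3 closest profiles of each, up to 3 genes with the largest called change per list and comparison (and PAR32, GLN3, URE2 and GCN4, given though uncalled), and the marker genes. DUR1,2 had no probe set under that symbol. The genes and lists were chosen with earlier results of these data known. For arrays, the number of arrays limits the precision. Alternatives were quantile normalization, median centring, an offset of 64, the brighter probe sets only, replicate blocks, the groups compared alone and leaving out each array. Each gene had 1 probe set, so no other probe set could be tried.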

Additional observations from a re-analysis of the deposited data

Results flagged for a closer look

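The response of a gene to nitrogen against carbon limitation differed between carbon sources or between strains, by an interaction test in limma (adjusted p under 0.05 over all probe sets), in 18 of the 32 tests made on the 8 genes. Over all probe sets, 6.23% to 33.8% passed in these 4 interactions.

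Between carbon sources, the response on ethanol minus that on glucose, which subtracts any fall on glucose, was positive for MEP1, GDH2 and GDH3. It was 0.48 in the mutant strain and 0.58 in the reference strain for MEP1, 0.70 in the mutant strain and 0.40 in the reference strain for GDH2, and 1.60 in the mutant strain and 0.71 in the reference strain for GDH3. It was negative for MEP2 (-0.61 in the mutant strain, -0.82 in the reference strain) and for GLT1 (-0.26 in the mutant strain, -0.59 in the reference strain). It passed in a single strain for GLN1 (-0.23, mutant strain) and MEP3 (-0.35, reference strain). The call of GLN1 was lost under median centring (adjusted p = 0.077) and without replicate 2 of the mutant strain nitrogen-limited on glucose (0.0518). That of MEP3 was lost in the fit on its own groups (0.0626) and without replicate 2 of any of the 4 reference groups (up to 0.0736).

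Between strains, the response in the mutant strain minus that in the reference strain on glucose was -1.06 for GDH3, -0.50 for GLT1, -0.37 for MEP3 and -0.35 for MEP2. On ethanol it was 0.43 for GDH2 and -0.26 for GLN1, and the call of GLN1 did not hold whichever of its 8 arrays was left out (adjusted p up to 0.115).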

How the results depend on the processing

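Of 75 calls of the 8 genes, 49 held in every alternative set out at the start, 56 with any 1 array left out, and 54 in fits on the arrays of the compared groups alone. Of 128 differences, 16 turned sign in some alternative. None of these had passed the threshold, in either fit. Under quantile normalization the turned values for ethanol minus glucose under nitrogen limitation were 0.046 for MEP2 and -0.0060 for GDH1 in the reference strain and 0.0092 for MEP2 in the mutant strain. For mutant minus reference they were 0.020 for GDH2 glucose-limited, 0.011 for MEP2 and 0.0025 for GLN1 nitrogen-limited on glucose, and -0.025 for MEP2 and 0.0025 for GDH3 nitrogen-limited on ethanol. Under median centring they were -0.010 for GDH2 (ethanol minus glucose, carbon-limited mutant strain), 0.0068 for MEP2 (the same, nitrogen-limited), 0.021 for MEP2, 0.016 for GLN1 and 0.024 for GDH3 (mutant minus reference, nitrogen-limited), and 0.0028 for the GDH1 interaction of the mutant strain. The cause was not tested.

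With 1 array left out, values that turned ranged as follows. For GDH1, ethanol minus glucose was -0.082 to 0.013 in the carbon-limited and -0.031 to 0.077 in the nitrogen-limited reference strain, and -0.0014 to 0.046 in the nitrogen-limited mutant strain, and its strain interaction on glucose was -0.032 to 0.075. For MEP2, ethanol minus glucose in the nitrogen-limited reference strain was -0.0695 to 0.026, and mutant minus reference nitrogen-limited on glucose -0.049 to 0.046, where GLN1 had -0.0607 to 0.047. For MEP3, nitrogen minus carbon limitation was -0.030 to 0.078 in the mutant strain on glucose and -0.026 to 0.114 in the reference strain on ethanol, and its strain interaction on ethanol -0.0097 to 0.130. Mutant minus reference was -0.057 to 0.0099 for GDH3 nitrogen-limited on ethanol and -0.054 to 0.0094 for GDH2 glucose-limited.

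The count of the 8 genes past the threshold moved by over 1.5 times in some alternative in 7 of 16 comparisons. For mutant against reference nitrogen-limited on ethanol it was 1, and 2 under quantile normalization, with the brighter probe sets and with a block of the numbers in the descriptions. Fitted on the compared groups alone, which have fewer arrays, it was 0 there, 0 for nitrogen against carbon limitation on ethanol in both strains, 0 for the ethanol-limited strains, 3 for ethanol against glucose in the nitrogen-limited reference strain, and 1 for the strain interaction on ethanol, which was also 1 under median centring. With 1 array left out the count was 1 to 2 for nitrogen limitation on ethanol in the mutant and in the reference strain, 2 to 5 for the ethanol-limited strains, 0 to 1 for the strains nitrogen-limited on ethanol, and 1 for the strain interaction on ethanol.

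A replicate block with the numbers in the titles gave each comparison's member count within 1.5 times. Those numbers do not pair all the samples: same-numbered deviations correlated at -0.68 to 0.66 over 28 pairs of groups, with 11 above 0.1, and the glucose-limited reference arrays carry opposite numbers in title and description. With the descriptions' numbers the 6 pairs of reference groups correlated at 0.354 to 0.682, the 6 mutant pairs at 0.023 to 0.294, and pairs across strains at -0.47 to 0.24. A block within each strain with the descriptions' numbers, chosen after seeing the data, gave 4 genes for each of mutant against reference nitrogen-limited on glucose, on ethanol, and the strain interaction on ethanol. In the reference strain it added GDH1 under nitrogen against carbon limitation on both carbon sources, and MEP3 for ethanol against glucose under nitrogen limitation (adjusted p = 0.0185).

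Counts over all probe sets moved by over 1.5 times in 12 of 16 comparisons fitted on the compared groups alone, most for nitrogen against carbon limitation on ethanol (119 against 818 in the mutant strain, 16 against 469 in the reference strain) and for the ethanol-limited strains (165 against 1417). On glucose in the reference strain it was 1341 against 2494. They moved in 15 of 16 with the brighter probe sets, where fewer were tested (1356 against 2494 in that comparison), and in 10 of 16 with the block within each strain (1037 against 356 for the strain interaction on ethanol). With 1 array left out, the count for nitrogen limitation on ethanol was as low as 260 in the mutant strain and 240 in the reference strain.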
